A study of Homo sapiens with 6 samples.

Results

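Cadherins and protocadherins were taken here by name, as genes with the symbols CDH or PCDH followed by a number or a letter code. In the deposited gene table, 89 protein-coding genes met this naming rule. The table held 46427 genes in all, 19672 of them protein-coding, and 6 further rows with such a name were left out because they are not annotated as protein-coding. The 89 genes comprised 23 CDH genes (5 classical type I, 13 classical type II and 5 others), 53 clustered protocadherins (15 alpha, 16 beta and 22 gamma) and 13 protocadherins outside the clusters.

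RNA was sequenced from MDA-MB-231 cells, an established human breast cancer line of mesenchymal character, in 3 control-siRNA and 3 TAZ-siRNA libraries. The control libraries carry the genotype label WT, and the TAZ-siRNA cells were transfected with siGENOME siRNA against WWTR1, the gene that encodes the transcriptional co-activator TAZ, using DharmaFECT4. Each library came from its own cell preparation of this line, so the p-values measure the spread between preparations of the same cells, which were detached with trypsin before RNA was harvested. Only 1 line and 1 siRNA reagent were used, so effects of the reagent other than the loss of TAZ cannot be told apart from it.

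WWTR1 had 12828, 11808 and 9228 counts with control-siRNA and 1263, 840 and 843 counts with TAZ-siRNA, so the targeted mRNA was lower in every library labelled TAZ-siRNA. Total counts per library ranged from 48307548 to 71749634, and a floor of 3 counts, which covers counting error only, equalled 0.0418 to 0.0621 CPM (counts divided by the normalized library size, on a common scale). On the second principal component TAZ-siRNA replicate 3 was far from the rest (-20.1, against -3.66 to 9.94). The cell type label is epithelial cell. Of 5 breast epithelial markers (KRT7, KRT8, KRT18, KRT19 and EPCAM), EPCAM was low, at 0.770 to 1.59 CPM over the 6 libraries. The sum of the 5, given below, therefore came almost wholly from the keratins. Leukocyte markers PTPRC and CD3E and the fibroblast marker DCN were at 0 in all libraries. The third leukocyte marker, CD14, was at 0.453 to 0.645 CPM with control-siRNA and 0.699 to 0.912 CPM with TAZ-siRNA. These low values did not overlap, and CD14 was not called. The summed level of the 3 fibroblast markers (DCN, COL1A1 and PDGFRB) was 20.0 to 21.8 CPM with control-siRNA and 27.4 to 28.3 CPM with TAZ-siRNA, and COL1A1 and PDGFRB both rose. The summed level of the 5 breast epithelial markers was 1450 to 1550 CPM with control-siRNA and 1270 to 1440 CPM with TAZ-siRNA. The mesenchymal markers VIM and FN1 summed to 4400 to 4670 CPM with control-siRNA and 4350 to 4570 CPM with TAZ-siRNA. The part of these marker changes in the results that follow was not tested.

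Cadherins are membrane proteins whose extracellular repeats bind calcium and join neighbouring cells. The classical type I and type II cadherins bind mainly to their own kind and connect through catenins to actin at adherens junctions, and the balance between E-cadherin and N-cadherin is widely used to describe epithelial and mesenchymal states. Protocadherins carry similar repeats but lack the catenin-binding tail. Those of the alpha, beta and gamma clusters are encoded side by side on chromosome 5, where each variable exon has its own promoter, and in the alpha and gamma clusters a variable exon is spliced to exons shared by the whole cluster. They are best known from neurons, where their combination gives each cell a surface identity.

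Of the 89 genes, 39 had enough reads to be tested and 50 did not. Among the 50, 12 were at 0 in all libraries, 17 did not exceed 3 counts in any library and the other 21 reached 4 to 19 counts in their highest library. With TAZ-siRNA, 13 of the 39 genes rose and 1 fell at an adjusted p under 0.05 (edgeR's quasi-likelihood test, Benjamini-Hochberg adjustment over all genes tested). Over all 16966 genes tested, 11.9% rose and 10.2% fell, or 22.1% in either direction, against 35.9% of the cadherins and protocadherins that were tested. The log2 fold change was positive in 32 of the 39 and its median was 0.48. Over all genes tested it was positive in 49.2%, with a median of -0.0054. Clustered genes made up 26 of the 39 and 23 of the 32, and they can share reads, so their signs may not be separate observations. The libraries of both groups did not overlap for 21 of the 39, of which 19 were higher with TAZ-siRNA, and did not overlap for 39.6% of all genes tested. These shares describe only the genes that passed the expression filter. In bulk RNA, a change in the number of cells that express a gene and a change in RNA per cell cannot be told apart. The number that rose was 8 without control-siRNA replicate 1 (40 tested), control-siRNA replicate 2 (41) or TAZ-siRNA replicate 1 (42). Among all genes, 2262, 1937 and 2046 were called in these fits, against 3749 with all libraries. Without TAZ-siRNA replicate 3, the library that stood apart, 13 of 43 rose and 2 fell, while 5928 genes were called. The calls over all genes grew in that fit too, so the 13 and 2 do not show that the excess over all genes held.

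**Figure D1:**
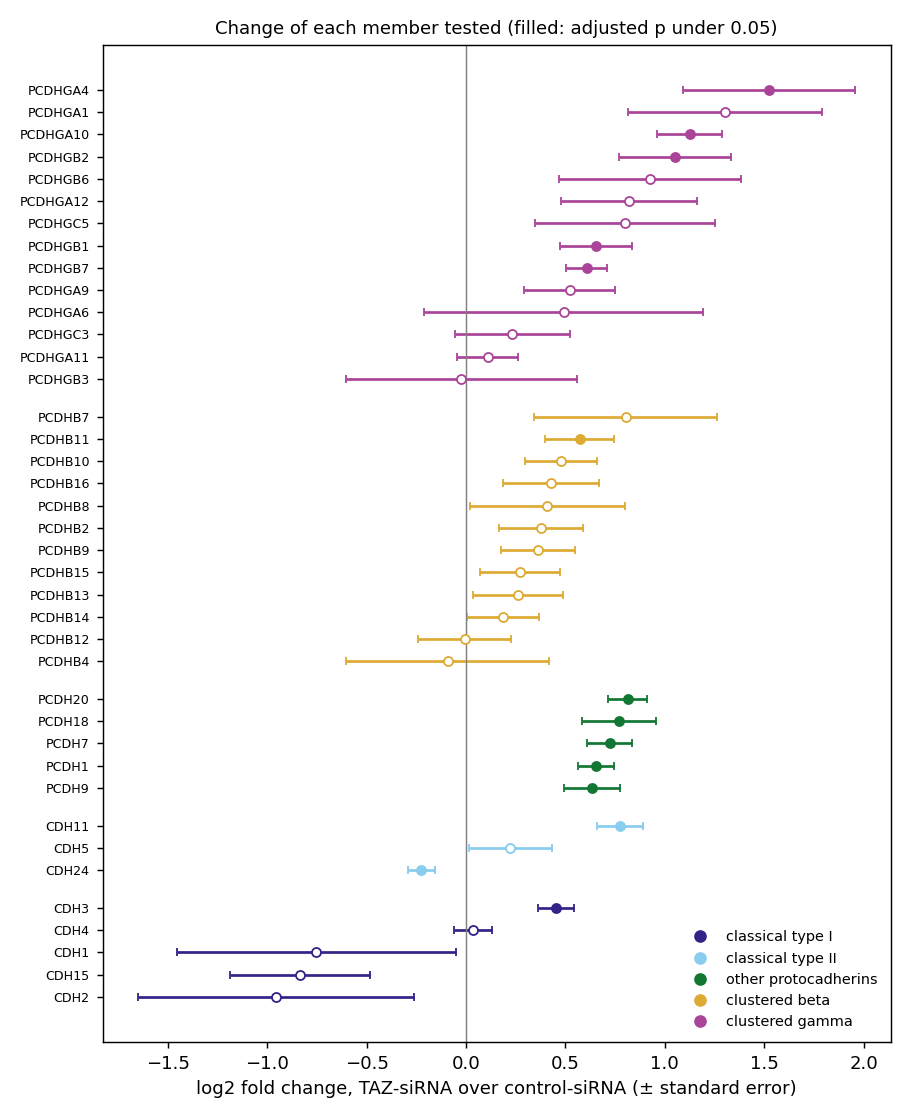
The plot shows the log2 fold change (TAZ-siRNA over control-siRNA) of the 39 genes tested on the horizontal axis, grouped by family, with bars for the standard error and filled points for an adjusted p under 0.05 (edgeR). The 5 protocadherins outside the clusters sit between 0.63 and 0.81 and are all filled, while the classical cadherins lie on both sides of 0.

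The counts by family are given beside the 11.9% that rose and 10.2% that fell over all genes tested. All 5 tested protocadherins outside the clusters rose, as did 5 of 14 gamma genes and 1 of 12 beta genes. The 8 tested classical cadherins held 2 that rose and 1 that fell. The beta share of 8.33% was not above that of all genes. For the classical cadherins, 37.5% of only 8 genes were called in either direction, against 22.1% of all genes. No alpha gene passed the filter, and 14 of the 15 did not exceed 3 counts in any library. Whether the families differ from each other was not tested.

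In levels per transcript length, 8 of the 89 genes reached a mean of 1 FPKM and 31 reached 0.1 FPKM. CDH11 led with 14.1 FPKM on average and held 23.7 to 37.8% of the summed FPKM of all 89 genes in a library. CDH4 (5.90 FPKM), CDH24 (4.64), CDH3 (3.14), PCDHGB7 (2.90), PCDH20 (2.37), PCDH7 (1.94) and PCDH1 (1.54) followed. Neighbours in this order overlapped in range over the 6 libraries, except that every library of CDH11 lay above those of CDH4 and every library of CDH24 above those of CDH3. The leading genes were thus CDH11 and 3 other classical cadherins, and not CDH1 or CDH2.

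**Figure D2:**
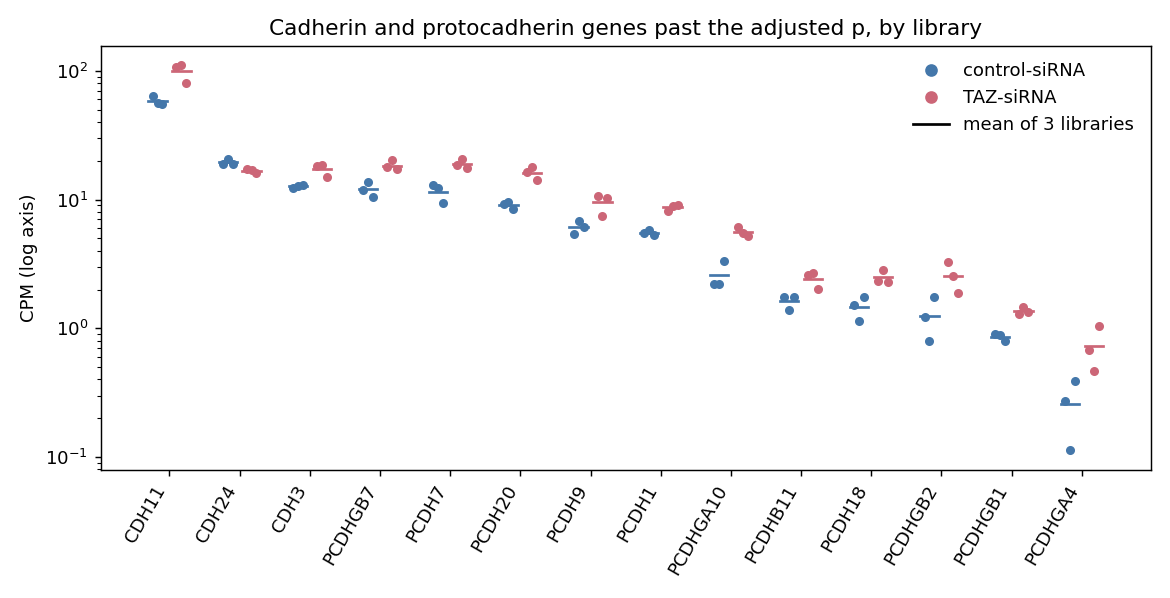
CPM of each library (log axis) for the 14 genes past an adjusted p of 0.05, with control-siRNA and TAZ-siRNA libraries as points and the mean of 3 libraries as a line. The TAZ-siRNA points lie above the control-siRNA points in all 13 genes that rose and below them for CDH24.

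Among the classical cadherins, CDH11 and CDH3 rose, CDH24 fell slightly, and CDH4 was measured at about the same level in both groups. CDH11 (NCBI gene 1009; GRCh38 chr16:64943753-65126112) encodes OB-cadherin, a type II cadherin typical of mesenchymal cells. Its level was 63.4, 56.4 and 55.3 CPM with control-siRNA and 108, 111 and 81.2 CPM with TAZ-siRNA. Every TAZ-siRNA library was above every control-siRNA library, with replicate 3 the lowest of its group. The mean rose from 58.4 CPM (SD 4.40, n = 3) to 99.9 CPM (SD 16.2, n = 3), or by 0.77 ± 0.115 on the log2 scale (SE, adjusted p = 0.0026), and the call held with each library left out in turn.

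CDH3 (gene 1001; chr16:68644914-68727573) encodes P-cadherin, a type I cadherin of basal epithelial cells such as the myoepithelium of the breast. It had 12.3, 12.7 and 13.1 CPM with control-siRNA and 18.3, 18.7 and 15.0 CPM with TAZ-siRNA. The groups did not overlap, and again TAZ-siRNA replicate 3 was nearest to the controls. CDH3 had a log2 fold change of 0.45 ± 0.0898 (SE, adjusted p = 0.0059), and the call held with each library left out.

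CDH24 (gene 64403; chr14:23047061-23057619) encodes a type II cadherin that binds catenins. Its level was 18.9, 20.8 and 19.0 CPM with control-siRNA and 17.2, 16.9 and 16.0 CPM with TAZ-siRNA. The TAZ-siRNA libraries were all lower, by a small margin, with a log2 fold change of -0.23 ± 0.0682 (SE, adjusted p = 0.038). The call was lost without any of the 3 control-siRNA libraries, without TAZ-siRNA replicate 1 and without replicate 2, with an adjusted p of 0.072 to 0.165 in these 5 fits, and it held only without TAZ-siRNA replicate 3 (adjusted p = 0.046).

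CDH4 (gene 1002; chr20:61252261-61940617) encodes R-cadherin, a type I cadherin first known from the retina. It had 44.3, 44.5 and 41.1 CPM with control-siRNA and 45.04, 50.9 and 37.5 CPM with TAZ-siRNA. The TAZ-siRNA libraries lay on both sides of the controls, and the log2 fold change was 0.04 with a 95% interval from -0.18 to 0.25 (adjusted p = 0.82).

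CDH1 (gene 999; chr16:68737292-68835537), which encodes E-cadherin, and CDH2 (gene 1000; chr18:27932878-28177130), which encodes N-cadherin, are the cadherins read most often as signs of the epithelial and mesenchymal state. Both had few counts in this line, and in TAZ-siRNA replicate 2 each was below the floor of 3 counts. CDH1 had 7, 36 and 9 counts with control-siRNA and 13, 2 and 16 with TAZ-siRNA. The groups overlapped widely, and the highest library was control-siRNA replicate 2. The log2 fold change was -0.75 with a 95% interval from -2.32 to 0.81 (adjusted p = 0.48), and it was 0.28 without control-siRNA replicate 2. CDH2 had 17, 26 and 15 counts with control-siRNA and 10, 0 and 20 with TAZ-siRNA. These groups also overlapped, and TAZ-siRNA replicate 2 had no count. The log2 fold change was -0.96 with a 95% interval from -2.50 to 0.59 (adjusted p = 0.36), and without TAZ-siRNA replicate 3 it was -2.03 (adjusted p = 0.041). The intervals of both genes are wide, and neither a rise nor a fall can be read from them.

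The other 2 classical cadherins tested, CDH5 (VE-cadherin) and CDH15 (M-cadherin), were not called and are named after their values were seen. CDH15 had 19, 27 and 23 counts with control-siRNA and 16, 13 and 10 with TAZ-siRNA, with a log2 fold change of -0.84 ± 0.351 (SE, adjusted p = 0.114). Its groups did not overlap, although all values were low. CDH5 had a log2 fold change of 0.22 ± 0.208 (SE, adjusted p = 0.48), with overlapping groups.

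Of the 13 protocadherins outside the clusters, 5 were tested. PCDH1, PCDH7, PCDH9, PCDH18 and PCDH20 all rose in counts, by 1.55 to 1.76 times, and the groups did not overlap in CPM for any of them. On the FPKM scale PCDH9 did not rise. The remaining 8 of this family (3 of them at 0 in all libraries) were too low to test. PCDH20 (gene 64881; chr13:61409685-61415522) was the highest of the family per transcript length. It had 9.26, 9.65 and 8.50 CPM with control-siRNA and 16.3, 17.9 and 14.1 CPM with TAZ-siRNA, without overlap, and its log2 fold change was 0.81 ± 0.0970 (SE, adjusted p = 0.00043).

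PCDH7 (gene 5099; chr4:30719861-31146800), known as BH-protocadherin from its expression in brain and heart, had 12.9, 12.2 and 9.34 CPM with control-siRNA and 18.7, 20.8 and 17.6 CPM with TAZ-siRNA. All TAZ-siRNA libraries were higher, and the log2 fold change was 0.72 ± 0.114 (SE, adjusted p = 0.0019). PCDH1 (gene 5097; chr5:141850393-141878410), a protocadherin of epithelial cells including those of the airway, lies on chromosome 5 beyond the clusters. It had 5.49, 5.75 and 5.31 CPM with control-siRNA and 8.13, 8.92 and 9.04 CPM with TAZ-siRNA. The spread within each group was small, and TAZ-siRNA replicate 3 was the highest here. Its log2 fold change was 0.65 ± 0.0906 (SE, adjusted p = 0.00089). The calls of PCDH20, PCDH7 and PCDH1 held with each library left out.

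PCDH18 (gene 54510; chr4:137518918-137532530) was lower, at 1.51, 1.14 and 1.75 CPM with control-siRNA and 2.34, 2.86 and 2.29 CPM with TAZ-siRNA. The groups did not overlap, with a log2 fold change of 0.77 ± 0.187 (SE, adjusted p = 0.015). The call was lost without control-siRNA replicate 1 (adjusted p = 0.051), control-siRNA replicate 2 (0.067) or TAZ-siRNA replicate 2 (0.057).

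PCDH9 (gene 5101; chr13:66302834-67230336), the largest of these genes in genomic extent, had 5.44, 6.87 and 6.09 CPM with control-siRNA and 10.7, 7.46 and 10.3 CPM with TAZ-siRNA. The groups came close, since TAZ-siRNA replicate 2 was only a little above the highest control. Its log2 fold change was 0.63 ± 0.142 (SE, adjusted p = 0.010). The call was lost without control-siRNA replicate 1 (adjusted p = 0.055), without TAZ-siRNA replicate 1 (0.056), and when GC content and length were corrected for (0.054, with a log2 fold change of 0.65 ± 0.206, SE). On the FPKM scale the control-siRNA mean was 0.381 (SD 0.265, n = 3) and the TAZ-siRNA mean was 0.353 (SD 0.0687, n = 3), a ratio of 0.927. Control-siRNA replicate 3 stood apart in this gene, with 192 counts assigned to a transcript of 5993 bases that had 0 counts in the other libraries. The mean length of the transcripts counted was 12731 bases in that library and 25783 to 26828 bases in the others, so the estimated transcript lengths moved with the FPKM.

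The clustered protocadherins were expressed unevenly. Summed over the 15 genes of the alpha cluster, 2, 0 and 14 counts were found with control-siRNA and 7, 8 and 2 with TAZ-siRNA, which is no more than trace expression. The beta cluster summed to 11.4, 10.4 and 11.9 CPM with control-siRNA and 15.1, 15.3 and 12.5 CPM with TAZ-siRNA, 1.28 times as high on average. The gamma cluster summed to 28.4, 29.5 and 27.2 CPM with control-siRNA and 45.01, 45.9 and 37.7 CPM with TAZ-siRNA, 1.51 times as high. In both clusters the groups did not overlap, and TAZ-siRNA replicate 3 was the lowest of its group. On the TPM scale the ratios were 1.34 for beta and 1.504 for gamma. With 3 libraries against 3, an exact permutation test of such a sum cannot go below 0.1, so none is given.

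**Figure D3:**
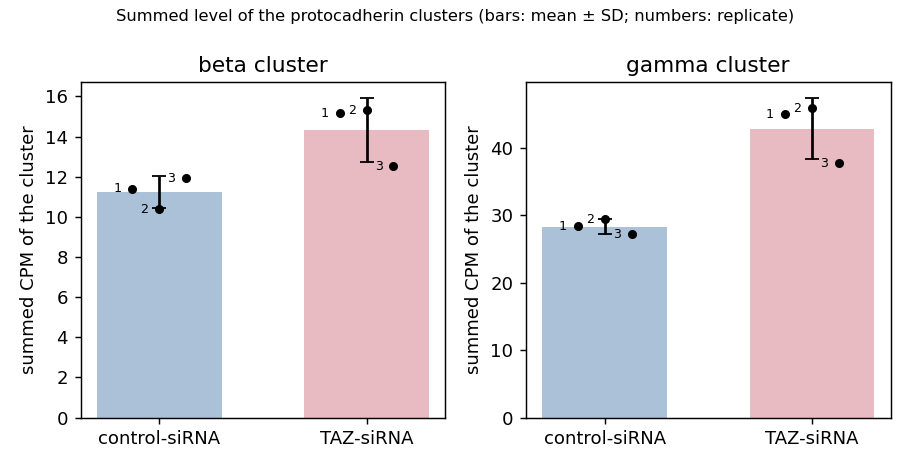
Summed CPM of the beta (left) and gamma (right) cluster on axes that start at 0, with bars for the mean, error bars for the SD of 3 libraries and points numbered by replicate. The gamma sums are 28.3 ± 1.12 CPM with control-siRNA and 42.9 ± 4.49 CPM with TAZ-siRNA.

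The start of each variable exon carries its own promoter, so the sequences before these starts were compared between the clusters. The clustered promoters share a conserved sequence element around the letters CGCT, to which the insulator protein CTCF is known to bind. RefSeq promoter windows of 300 bases (assembly GRCh38.p14) were matched by symbol for 70 of the 89 genes, among them 47 of the 53 clustered genes (13 alpha, 14 beta and 20 gamma). Words of 8 letters were searched on both strands, and among the most widely shared in each cluster was one that held CGCT. It was ATGTCGCT in 9 of 13 alpha genes, GTGGCGCT in 13 of 14 beta genes and GCCGCTGT in 11 of 20 gamma genes. These words occurred in 0.234%, 1.15% and 1.63% of all 35116 promoter windows, respectively. They were chosen because they were shared, so the counts are a description. The median distance from the first letter of the word to the start was 52 bases for alpha, 65 for beta and 67 for gamma. None of the 3 words was found in a gene of either other cluster.

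The 100 bases before the RefSeq start are shown for the clustered genes described here that have a window, because they place the exact word of each cluster, where it occurs, beside the measured changes. Capitals mark GTGGCGCT in the beta gene and GCCGCTGT in the gamma genes, and all are on the plus strand of GRCh38.p14. The windows are chr5:141094515-141094614 for PCDHB2, chr5:141412887-141412986 for PCDHGA10, chr5:141354921-141355020 for PCDHGA4, chr5:141360036-141360135 for PCDHGB2, chr5:141349999-141350098 for PCDHGB1 (the first of its starts), chr5:141417577-141417676 for PCDHGB7 and chr5:141475866-141475965 for PCDHGC3.
PCDHB2: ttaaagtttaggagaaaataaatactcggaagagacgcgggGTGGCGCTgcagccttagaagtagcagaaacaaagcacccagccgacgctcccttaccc
PCDHGA10: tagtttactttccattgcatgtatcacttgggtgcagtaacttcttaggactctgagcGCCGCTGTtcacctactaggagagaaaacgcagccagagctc
PCDHGA4: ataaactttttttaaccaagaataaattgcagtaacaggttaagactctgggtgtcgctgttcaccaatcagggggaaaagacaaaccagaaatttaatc
PCDHGB2: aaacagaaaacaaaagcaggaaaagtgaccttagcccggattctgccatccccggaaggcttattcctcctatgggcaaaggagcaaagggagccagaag
PCDHGB1: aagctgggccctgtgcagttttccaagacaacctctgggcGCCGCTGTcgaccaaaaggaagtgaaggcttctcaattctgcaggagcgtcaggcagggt
PCDHGB7: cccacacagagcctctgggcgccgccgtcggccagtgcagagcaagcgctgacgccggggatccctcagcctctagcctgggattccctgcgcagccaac
PCDHGC3: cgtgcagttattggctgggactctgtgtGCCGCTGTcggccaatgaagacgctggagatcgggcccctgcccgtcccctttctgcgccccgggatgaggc

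The word lay 59 bases before the RefSeq start in PCDHB2, 42 in PCDHGA10 and 72 in PCDHGC3. For PCDHGA10 the window ends at chr5:141412986, while its deposited transcripts start further on, at chr5:141413176. In PCDHGB1 the word lay 60 bases before the first RefSeq start and 222 bases before the second, which is the start of the deposited transcripts. The exact word was not in the windows of PCDHGA4, PCDHGB2 and PCDHGB7, which does not say that they lack the element in another spelling. It was held by 2 of the 5 gamma genes that rose, by 4 of the 7 tested without a call that have a window (PCDHGA1, PCDHGA9, PCDHGB6 and PCDHGC3) and by 5 of the 8 not tested. TAZ acts on DNA through the TEAD factors, whose motif GGAATG was found on either strand in 9 of the 47 clustered genes and in 0 of the 9 genes called in either direction that have a window, against 4928 of the 35116 windows. The E-box CAGGTG, a motif bound by the SNAI and ZEB repressors, was found in 4 of the 47 and in 1 of the 9, against 20.6% of all windows. For the motifs and for the shared words above, a gene was counted if any of its windows held the letters. The background is counted per window, and the 70 genes had 90 windows, so the shares are not like measures. These matches are descriptions of letters in short windows, and nothing about binding follows from them.

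In the gamma cluster, 5 genes rose and 13 of the 14 tested had a positive log2 fold change, with a median of 0.73. These genes share exons, so their signs may not be separate observations. PCDHGB7 (gene 56099; chr5:141417677-141512975) was the main gene of the cluster and made up a mean of 42.3% of its counts with control-siRNA and 43.0% with TAZ-siRNA. It had 11.9, 13.7 and 10.5 CPM with control-siRNA and 17.8, 20.2 and 17.2 CPM with TAZ-siRNA. The groups did not overlap, and the log2 fold change was 0.61 ± 0.103 (SE, adjusted p = 0.0026). Its call held with each library left out.

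PCDHGA10 (gene 56106; chr5:141413176-141512979) had 2.22, 2.22 and 3.31 CPM with control-siRNA and 6.07, 5.47 and 5.21 CPM with TAZ-siRNA. The lowest TAZ-siRNA library was well above the highest control. Its log2 fold change was 1.13 ± 0.162 (SE, adjusted p = 0.0011), and this call also held with each library left out. Its share of the counts of the cluster was 9.18% on average with control-siRNA and 13.1% with TAZ-siRNA, although control-siRNA replicate 3 (12.2%) was above TAZ-siRNA replicate 2 (11.9%), so these shares overlapped.

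The other gamma genes that rose were lower and their calls rested on more of the libraries. PCDHGA4 (gene 56111; chr5:141355021-141512975) had 18, 7 and 19 counts with control-siRNA and 49, 23 and 58 with TAZ-siRNA, and the log2 fold change was 1.52 ± 0.432 (SE, adjusted p = 0.030). PCDHGB2 (gene 56103; chr5:141360136-141512979) had 1.21, 0.803 and 1.75 CPM with control-siRNA and 3.28, 2.53 and 1.88 CPM with TAZ-siRNA, with a log2 fold change of 1.05 ± 0.282 (SE, adjusted p = 0.025). The groups of both genes came close without overlapping. PCDHGB1 (gene 56104; chr5:141350261-141512979) had 0.900, 0.883 and 0.803 CPM with control-siRNA and 1.29, 1.46 and 1.34 CPM with TAZ-siRNA, with a log2 fold change of 0.65 ± 0.181 (SE, adjusted p = 0.027). The call of PCDHGA4 was lost without control-siRNA replicate 1 (adjusted p = 0.088), control-siRNA replicate 2 (0.102), TAZ-siRNA replicate 1 (0.080) or TAZ-siRNA replicate 3 (0.055). That of PCDHGB2 was lost without control-siRNA replicate 1 (0.083), control-siRNA replicate 2 (0.086), TAZ-siRNA replicate 1 (0.113) or TAZ-siRNA replicate 2 (0.056). That of PCDHGB1 held only without TAZ-siRNA replicate 3, and was lost with an adjusted p of 0.061 to 0.083 without any of the other 5 libraries.

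PCDHGC3 (gene 5098; chr5:141475966-141512975) belongs to the C-type genes at the end of the cluster, which in neurons are less bound to random choice than the others. It had 3.67, 4.19 and 3.81 CPM with control-siRNA and 6.33, 4.80 and 2.51 CPM with TAZ-siRNA. The TAZ-siRNA libraries lay on both sides of the controls, and the log2 fold change was 0.23 with a 95% interval from -0.44 to 0.90 (adjusted p = 0.61). Without TAZ-siRNA replicate 3 the gene was called higher (adjusted p = 0.0077), and without TAZ-siRNA replicate 1 the log2 fold change was -0.10. The 17 gamma genes that were not called or not tested, PCDHGC3 included, summed to 11.8, 11.7 and 10.5 CPM with control-siRNA and 15.9, 15.8 and 11.1 CPM with TAZ-siRNA. For this remainder TAZ-siRNA replicate 3 fell among the control libraries.

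Gamma genes are read as a long transcript, which joins the variable exon to the shared exons, and a short one of the variable exon without them. The long form held 83.6, 76.9 and 84.0% of the counts of the cluster with control-siRNA and 90.1, 88.3 and 85.7% with TAZ-siRNA. The groups did not overlap, but control-siRNA replicate 3 and TAZ-siRNA replicate 3 were close. For PCDHGB7 nearly all counts were on the long form in every library, with 787, 813 and 486 counts for control-siRNA and 1281, 992 and 944 for TAZ-siRNA. PCDHGA10 had 57, 56 and 155 long counts with control-siRNA and 428, 265 and 286 with TAZ-siRNA, and 91, 82 and 6 short counts with control-siRNA and 15, 5 and 5 with TAZ-siRNA. Control-siRNA replicate 3 was thus unlike the other controls in its forms, while its total for the gene was the highest of the controls in CPM.

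PCDHGB1 was split differently again. All of its control-siRNA counts (60, 55 and 39) were on the short form of 2433 bases, and the TAZ-siRNA libraries had 88, 68 and 42 counts on the long form of 4590 bases and 6, 4 and 33 on the short form. Since FPKM divides by transcript length, its FPKM ratio was 0.981 where the count rose 1.57 times. PCDHGB1 and PCDH9 were the exceptions among the 13 genes that rose, and for the other 11 the FPKM was also higher with TAZ-siRNA in every library than in any control. The shared exons of the gamma genes are the same sequence in each, so the share given to each gene and form is an estimate of the counting program and is less certain than the sum of the cluster.

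**Figure D4:**
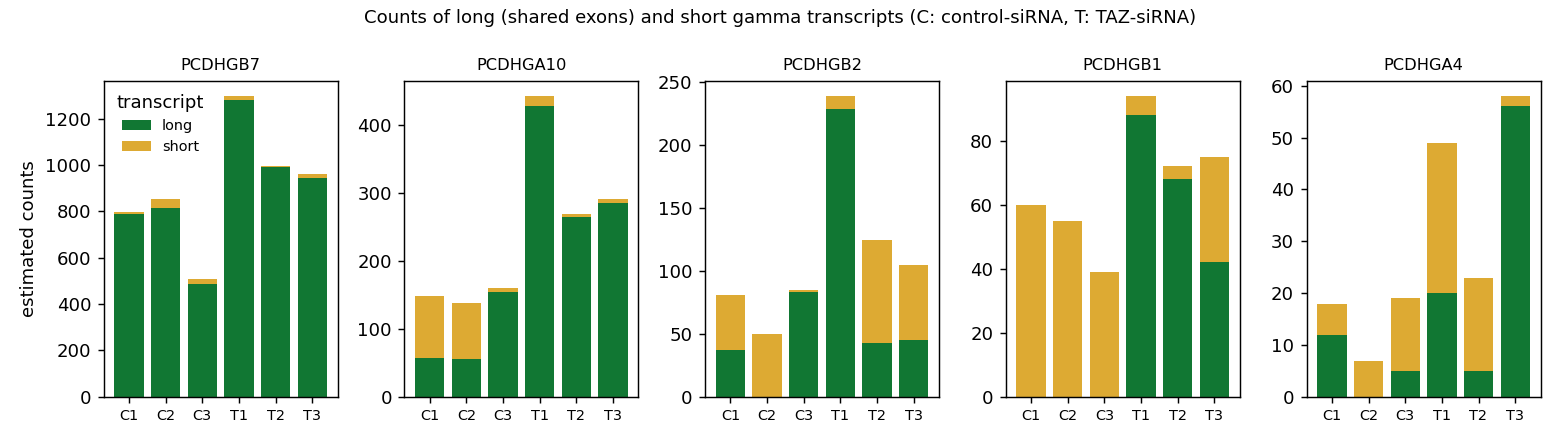
Estimated counts of long (green) and short (yellow) transcripts of the 5 gamma genes that rose, 1 bar per library (C for control-siRNA, T for TAZ-siRNA) on axes that start at 0 and differ between genes. PCDHGB7 is almost wholly long in all libraries, and PCDHGB1 is wholly short in the 3 controls.

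The beta genes consist of a single exon each and are close copies of one another. Of the 12 tested, 10 had a positive log2 fold change, with a median of 0.37, and PCDHB11 alone was called. PCDHB11 (gene 56125; chr5:141199627-141203779) had 1.75, 1.40 and 1.75 CPM with control-siRNA and 2.58, 2.70 and 2.005 CPM with TAZ-siRNA. The groups did not overlap, and the log2 fold change was 0.57 ± 0.173 (SE, adjusted p = 0.038). The call held only without TAZ-siRNA replicate 3, and without any of the other 5 libraries the adjusted p was 0.078 to 0.144. PCDHB2 (gene 56133; chr5:141094615-141098703) had 0.660, 0.851 and 0.803 CPM with control-siRNA and 0.946, 0.912 and 1.15 CPM with TAZ-siRNA. Its groups did not overlap either, but the log2 fold change of 0.38 had a 95% interval from -0.09 to 0.85 (adjusted p = 0.23). The 15 beta genes other than PCDHB11 summed to 9.66, 8.98 and 10.2 CPM with control-siRNA and 12.6, 12.6 and 10.5 CPM with TAZ-siRNA, so the sums did not overlap without it. Reads shared by near-identical beta genes could be divided among them in the counting, which makes the value of a single beta gene uncertain. For the same reason the signs of the beta genes may not be separate observations.

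Among the partners through which cadherins act, most changes were small. Of 16 catenin and junction genes, 12 were tested, 5 rose (CTNND1, VCL, AFDN, NECTIN1 and NECTIN2) and 1 fell, with a median log2 fold change of 0.07. Over all genes tested, 11.9% rose and 10.2% fell, and these shares also apply to the lists that follow. The core catenins were not called, with log2 fold changes of -0.06 for CTNNA1 (alpha-catenin) and 0.14 for CTNNB1 (beta-catenin). CTNND1 (p120-catenin, which holds cadherins at the membrane) rose by 0.17 on the log2 scale (adjusted p = 0.040) and VCL (vinculin) by 0.27 (adjusted p = 0.012). NECTIN1, an adhesion receptor of the same junctions, rose by 0.86 (adjusted p = 0.0019), and NECTIN3 fell by 0.23 (adjusted p = 0.014).

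Of 17 genes for factors that act on the clustered promoters (CTCF, cohesin, chromatin and DNA methylation genes), all were tested and 1 was called higher, and the median log2 fold change of the list was -0.02. CTCF itself was not called, at 0.17 (adjusted p = 0.105). Of 6 repressors of CDH1, 5 were tested and SNAI2, which encodes Slug, rose by 0.55 (adjusted p = 0.0044), while TWIST1 was too low to test. Of 8 genes for proteins that cleave protocadherins or signal from them, all were tested, 2 rose and 0 fell. The 25% called in either direction was near the 22.1% over all genes tested, of which 11.9% rose. PTK2B, a kinase known to bind protocadherin tails, was among the 2 and rose by 0.73 on the log2 scale (adjusted p = 0.0016).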

How the data were processed

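Total RNA of 6 MDA-MB-231 cell preparations was made into stranded mRNA libraries and read as paired ends. After trimming, the authors aligned the reads to GRCh38 using HISAT2 and assembled RefSeq genes using StringTie. The versions, and whether counting used the strand, are not given in the sources used here. The submitters' processing notes name Bowtie and the builds mm8 and GRCh38 without a role. The deposited estimated counts were made by the authors per gene and per transcript and are whole numbers. For the deposited FPKM the authors divided by transcript length and by library size. For the deposited TPM they divided by length before setting a common total. Transcript lengths are as the authors deposited them.

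Genes passing filterByExpr (minimum count of 10) were compared with edgeR 4.0.16 (R 4.3.3), using TMM normalization, the robust quasi-likelihood test and a threshold of 0.05 after Benjamini-Hochberg adjustment. The test was checked on simulated data. Intervals are 95% intervals from the same fit. Alternatives were DESeq2 1.42.0, limma 3.58.1 (log2 of FPKM plus 1 or 0.1), other filters and scalings, the replicate number as a block, and leaving out each library. The deviations of same-numbered libraries correlated at 0.0388 and 0.0344 for replicates 1 and 2, and at 0.206 for replicate 3. The main fit did not pair the samples by number, and these values do not settle whether they are paired. Replicates of a group differed beyond sampling noise. Members and lists were chosen with earlier results of these data known. Named were members past the adjusted p, CDH1, CDH2, PCDHGA10, PCDHGA4, PCDHGB2 and PCDHB2, and the 3 with the highest FPKM of each of 3 families (CDH, clustered and other protocadherins). Gene positions are from the deposited transcript table. Genes that overlap the named members outside the clusters had at most 6 counts in total where the table listed them. Promoter windows came from RefSeq. The values of some genes of the partner lists are not reported here. Every value column was matched to a sample.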

Additional observations from a re-analysis of the deposited data

How the results depend on the processing

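The 13 cadherin and protocadherin genes that rose and the 1 that fell were the same 14 genes with DESeq2, with upper-quartile factors and without a filter on low counts. With at least 10 counts required in every library, 31 of the 89 were tested, 12 rose and 1 fell, and PCDHGA4 was no longer tested. In the 6 fits that leave out a library, the genes that rose numbered 8 to 13, those that fell 0 to 2, and all genes called 1937 to 5928. CDH11, CDH3, PCDH1, PCDH7, PCDH20, PCDHGA10 and PCDHGB7 were called in all 6. At an adjusted p under 0.01, 1720 genes were called, of which 7 cadherins and protocadherins that rose and 0 that fell. With limma, 10 rose and 0 fell on either FPKM scale, and CDH24, PCDH9, PCDHB11 and PCDHGB1 lost their call. On log2(FPKM + 1) the log2 fold change turned to -0.014 for PCDH9 and -0.0069 for PCDHGB1, and on log2(FPKM + 0.1) to -0.024 for PCDHGB1. With each library left out, the log2 fold changes of genes that were not called ran from -1.28 to 0.28 for CDH1, -0.065 to 0.15 for CDH4 and -0.10 to 0.53 for PCDHGC3. The correction for GC content and length, chosen after the data had been seen, left 12 that rose and 1 that fell, and turned CDH4 to -0.061. The fit with the replicate number as a block called 5122 genes, of which 15 members that rose (PCDHGA1 and PCDHGA12 were gained) and 1 that fell. Whether the replicate numbers pair the samples is not settled, since the deviations of same-numbered libraries correlated at 0.206 for replicate 3 but weakly for replicates 1 and 2. CDH1, CDH2 and the alpha genes had few counts, and the spread between libraries was wide for CDH1 and CDH2.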

Other observations

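Cadherin repeats also occur in proteins whose genes do not carry a CDH or PCDH symbol, such as desmosomal cadherins, the FAT and CELSR families and the calsyntenins. Of 25 such genes, 11 were tested, 6 rose and 1 fell with TAZ-siRNA (edgeR, adjusted p under 0.05), with a median log2 fold change of 0.33. Over all genes tested, 11.9% rose and 10.2% fell. CELSR2, a cadherin of the planar cell polarity pathway, had 23.2, 19.9 and 17.9 CPM in the control-siRNA libraries and 38.0, 42.1 and 26.5 CPM in those with TAZ-siRNA. The groups did not overlap, and its log2 fold change was 0.80 ± 0.182 (SE, adjusted p = 0.023). The other members of that family rose less, CELSR1 by 0.33 (adjusted p = 0.0047) and CELSR3 by 0.26 (adjusted p = 0.039) on the log2 scale.

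DSC2, a desmosomal cadherin that joins epithelial cells to their keratin network, had 27.3, 26.2 and 25.6 CPM with control-siRNA and 41.4, 38.7 and 34.6 CPM with TAZ-siRNA. Every TAZ-siRNA library was higher, with a log2 fold change of 0.54 ± 0.0711 (SE, adjusted p = 0.00071). The calsyntenins CLSTN1 and CLSTN3 rose by 0.41 (adjusted p = 0.0040) and 0.27 (adjusted p = 0.0065). FAT4, a giant cadherin that acts with DCHS1 in tissue polarity, fell by 0.28 (adjusted p = 0.015), from 37.7, 37.1 and 37.9 CPM to 31.6, 33.2 and 27.7 CPM. These genes were listed with earlier results of the data known, and the list was not tested as a set.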
